A study of Mus musculus with 4 samples.

Results

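The 8 genes described here encode the fatty acid receptor PPAR-alpha (Ppara), enzymes that carry fatty acids into mitochondria and oxidize them (Cpt1a, Cpt2, Acadl, Acadm, Hadha), and a pair of classical PPAR-alpha target genes (Pdk4, Angptl4). They were taken by gene symbol from a table of 48709 genes, and all 8 were found. All 8 reached the minimum of 10 normalized counts on average and entered a test that covered 18436 genes. RNA was measured in the left lung lobe of C57BL/6 mice on postnatal day 1. The first group was 2 RykSL/SL mice, homozygous for an allele named SL of Ryk, a gene for a WNT receptor, and the other was 2 wild-type mice. No mouse received a treatment, and each library came from a separate mouse. The sample descriptions mark the RykSL/SL libraries as KO. What SL changes in the gene, and the sex and litter of the mice, are not given in the labels.

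Long-chain fatty acids enter mitochondria as carnitine esters, made by CPT1 at the outer membrane and turned back into acyl-CoA by CPT2 at the inner membrane. Acyl-CoA dehydrogenases and the trifunctional protein then shorten the chain in repeated cycles. PPAR-alpha is a nuclear receptor that binds fatty acids and, paired with RXR, switches on genes of this pathway, most strongly in liver, heart and brown fat. PDK4 phosphorylates and so inhibits pyruvate dehydrogenase, which spares glucose while fatty acids are burned. ANGPTL4 is a secreted inhibitor of lipoprotein lipase. Glucocorticoids, FoxO factors and fasting are also known to raise Pdk4 in several tissues. In the newborn lung, fatty acids also serve surfactant synthesis.

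Pdk4 rose in the RykSL/SL lungs, by 5.35-fold, and was the only one of the 8 genes to pass the test. Cpt1a, Cpt2, Acadl and Angptl4 each lay lower in both RykSL/SL lungs than in both wild-type lungs without passing it. Acadm, Hadha and Ppara overlapped between the genotypes. Of all genes tested, 2.39% passed, 1.47% upward and 0.917% downward. Groups did not overlap for 52.6% of all genes tested, with 25.7% higher and 26.9% lower in RykSL/SL. Among the 8, 1 was higher and 4 were lower without overlap. The values are normalized read counts as deposited. The test was limma on log2(value + 1), with differences given as RykSL/SL minus wild-type and p-values adjusted over all genes tested by the Benjamini-Hochberg method at a threshold of 0.05.

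The sequence before the transcription start is shown for Pdk4, the gene that rose, and for Cpt1a, the gene with the most negative difference among the 8, because both are textbook PPAR-alpha targets that lay on opposite sides of the wild type. Each is the 250 bases upstream of a RefSeq start on GRCm38.p6, read 5′ to 3′ on the strand of the gene, with matches to the motifs listed next in capitals. The Pdk4 sequence is on the minus strand at chr6:5496279-5496528 and that of Cpt1a on the plus strand at chr19:3323051-3323300. Other annotations place the starts elsewhere. Pdk4 as annotated with the deposited values begins at 5496309, inside its window. The GENCODE M21 model of Cpt1a begins at 3322334, so its window lies within that model.
Pdk4: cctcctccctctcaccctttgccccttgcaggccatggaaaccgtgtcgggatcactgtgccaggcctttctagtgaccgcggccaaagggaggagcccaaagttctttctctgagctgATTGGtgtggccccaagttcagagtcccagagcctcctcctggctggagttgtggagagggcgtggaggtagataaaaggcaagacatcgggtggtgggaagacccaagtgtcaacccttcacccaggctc
Cpt1a: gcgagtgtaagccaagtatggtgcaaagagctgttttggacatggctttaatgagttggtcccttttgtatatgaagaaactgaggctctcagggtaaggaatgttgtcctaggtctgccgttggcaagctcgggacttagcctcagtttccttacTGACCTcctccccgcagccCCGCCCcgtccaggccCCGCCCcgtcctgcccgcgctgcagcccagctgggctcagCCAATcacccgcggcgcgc

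Of the 8 genes, 7 had a sequence in the RefSeq table, which held 32851 promoters in all. Both strands were searched for 6 motifs. The CCAAT box (CCAAT) was present in Pdk4, from 131 to 127 bases before the start, and in Cpt1a, from 19 to 15 bases before it, and in none of the other 5. It occurred in 33.8% of all promoters of that length. The GC box (GGGCGG) was present in Acadl, Cpt1a, Cpt2, Hadha and Ppara, and in 32.7% of all promoters. The PPAR half-site (AGGTCA) occurred in Acadm and Cpt1a, and in 14% of all promoters. Its direct repeat, AGGTCA followed by any 1 base and AGGTCA again, which therefore contains the half-site, was in none of the 7 and in 0.0335% of all promoters. The glucocorticoid receptor palindrome, GNACA and TGTNC with any 3 bases between, and the FoxO core (GTAAACA) were in none of the 7, against 0.387% and 3.17% of all promoters. These are matches of letters in a short window and do not show which factor binds.

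Library totals, Ryk and sex-linked genes were read before the comparison, and they do not check the genotype. Library totals of normalized counts lay between 18658239 and 19987634. Ryk stood at 2757 and 2203 in the RykSL/SL lungs and at 2528 and 2525 in the wild-type lungs, so the level of its transcript does not check the labels. RykSL/SL replicate 1 stood apart in sex-linked genes, with 24836 normalized counts of Xist where the other 3 lungs had 7 to 23. The Y-linked gene Ddx3y had 56 in RykSL/SL replicate 1, 3769 in RykSL/SL replicate 2, and 2328 and 2197 in wild-type lungs. By these genes RykSL/SL replicate 1 read as female and the other 3 lungs as male. Sex and other differences between the RykSL/SL lungs cannot be told apart. The RykSL/SL lungs differed from each other by an SD of 0.6 over genes on the log2 scale and the wild-type lungs by 0.314. The 10 lung markers, among them Sftpc and Scgb1a1, were all present, with summed normalized counts of 307953 and 259410 in RykSL/SL and 366312 and 348196 in wild-type lungs. Most of each sum was Sftpc, with 179120 and 135559 in RykSL/SL and 220945 and 200581 in wild-type lungs. Of the 10 log2 differences 4 were above 0 and 6 below, and none passed, where 2.39% of all genes tested did. In whole lobes, fewer cells of a type and less RNA per cell cannot be told apart.

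Ppara (ENSMUSG00000022383, chromosome 15, positions 85734983 to 85802819, GRCm38), the receptor gene, was the least abundant of the 8. Its normalized counts were 41 and 64 in RykSL/SL lungs and 31 and 43 in wild-type lungs. The groups overlapped, with RykSL/SL replicate 1 just below wild-type replicate 2. The log2 difference was 0.48 with a 95% interval of -0.35 to 1.31 (limma, adjusted p = 0.481). With a single lung left out it lay between 0.16 and 0.79. Changes of genes as low as this one are understated on the log2(value + 1) scale.

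Cpt1a (ENSMUSG00000024900, chromosome 19, positions 3323301 to 3385732), the rate-limiting enzyme of mitochondrial fatty acid entry in most tissues, had 1525 and 958 normalized counts in RykSL/SL lungs, against 2296 and 2475 in wild-type lungs. Both RykSL/SL lungs were below both wild-type lungs, and replicate 2 was the lower of the pair. The log2 difference was -0.98, with a standard error of 0.234 and an interval of -1.55 to -0.41, and it did not pass (limma, adjusted p = 0.101). Without RykSL/SL replicate 1 the difference was -1.31, and without RykSL/SL replicate 2 it was -0.64. Of the CPT1 transcripts, counted per kilobase of transcript over Cpt1a, Cpt1b and Cpt1c, Cpt1a made up 84.5% and 70.5% in RykSL/SL lungs and 87.7% and 90.5% in wild-type lungs. The muscle isoform Cpt1b, picked once its values were known, had 6 and 14 normalized counts in RykSL/SL lungs and 4 and 4 in wild-type lungs.

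Cpt2 (ENSMUSG00000028607, chromosome 4, positions 107903981 to 107923610), which works on the inner side of the same shuttle, had 351 and 241 normalized counts in RykSL/SL lungs and 438 and 399 in wild-type lungs. As for Cpt1a, the groups did not overlap and RykSL/SL replicate 2 was lowest. The log2 difference of -0.52 had an interval of -1.06 to 0.01 (limma, adjusted p = 0.256). It was -0.79 without RykSL/SL replicate 1 and -0.25 without RykSL/SL replicate 2.

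The dehydrogenase genes Acadl and Acadm did not pass, and they were not tested against each other. Acadl (ENSMUSG00000026003, chromosome 1, positions 66830839 to 66863277), for the long-chain enzyme, had 2230 and 1461 normalized counts in RykSL/SL lungs and 2292 and 2338 in wild-type lungs. RykSL/SL replicate 1 was only just below the wild type and replicate 2 far below it, and the log2 difference was -0.36 with an interval of -0.89 to 0.17 (limma, adjusted p = 0.409). Without RykSL/SL replicate 1 it was -0.66, and without RykSL/SL replicate 2 it was -0.05. Acadm (ENSMUSG00000062908, chromosome 3, positions 153922357 to 153944632), for the medium-chain enzyme, had 1249 and 1000 against 1075 and 1168 in wild-type lungs. The RykSL/SL lungs lay on either side of the wild type, and the interval of the log2 difference was -0.4 to 0.39 (limma, adjusted p = 0.992).

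Hadha (ENSMUSG00000025745, chromosome 5, positions 30118304 to 30155162), which encodes the alpha subunit of the trifunctional protein, had 2403 and 1912 normalized counts in RykSL/SL lungs and 2298 and 2426 in wild-type lungs. The groups overlapped, with a log2 difference of -0.14 and an interval of -0.53 to 0.26 (limma, adjusted p = 0.676). Its partner subunit gene Hadhb, likewise named after its values were seen, stood at 1642 and 1469 in RykSL/SL and 1496 and 1635 in wild-type lungs, so the ratio of Hadha to Hadhb was 1.46 and 1.3 in RykSL/SL and 1.54 and 1.48 in wild-type lungs. Exons of Garem2 on the opposite strand overlap those of Hadha over 75 bases.

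Pdk4 (ENSMUSG00000019577, chromosome 6, positions 5483351 to 5496309) had 1578 and 1423 normalized counts in RykSL/SL lungs, against 309 and 252 in wild-type lungs. Both RykSL/SL lungs were far above both wild-type lungs, and the lungs of each genotype lay close together. The mean was 1500.5 ± 109.6 in RykSL/SL and 280.5 ± 40.3 in wild-type lungs (SD, n = 2 each). The log2 difference was 2.42 with a standard error of 0.165 and an interval of 2.02 to 2.82 (limma, adjusted p = 0.00597). It ranked 18 of 18436 genes by p and 81 by size of increase. The difference was 2.5 in RykSL/SL replicate 1, the lung with high Xist, and 2.35 in replicate 2, each against the wild-type mean.

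The size of the Pdk4 difference moved little when a lung was left out, from 2.27 to 2.57, but the call depended on single lungs. It passed without RykSL/SL replicate 1 (adjusted p = 0.0407) and did not pass with RykSL/SL replicate 2 left out (0.0966), nor with either wild-type lung left out (0.771 for replicate 1 and 0.716 for replicate 2). In those last 3 fits limma called no gene at all, with 5249, 917 and 1133 genes at an unadjusted p under 0.05. With 2 lungs against 2, an exact two-sided permutation test of a single gene cannot give a p below 0.333.

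Angptl4 (ENSMUSG00000002289, chromosome 17, positions 33773750 to 33781575) lay on the other side of the wild type from Pdk4. It had 797 and 1094 normalized counts in RykSL/SL lungs, against 1376 and 1441 in wild-type lungs. The groups did not overlap, and here RykSL/SL replicate 1 was the lowest. The log2 difference was -0.59 with a standard error of 0.186 and an interval of -1.04 to -0.14, and did not pass (limma, adjusted p = 0.165). It was -0.36 without RykSL/SL replicate 1 and -0.82 without RykSL/SL replicate 2. The ratio of Pdk4 to Angptl4 normalized counts was 1.98 and 1.3 in RykSL/SL lungs and 0.225 and 0.175 in wild-type lungs.

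**Figure D1:**
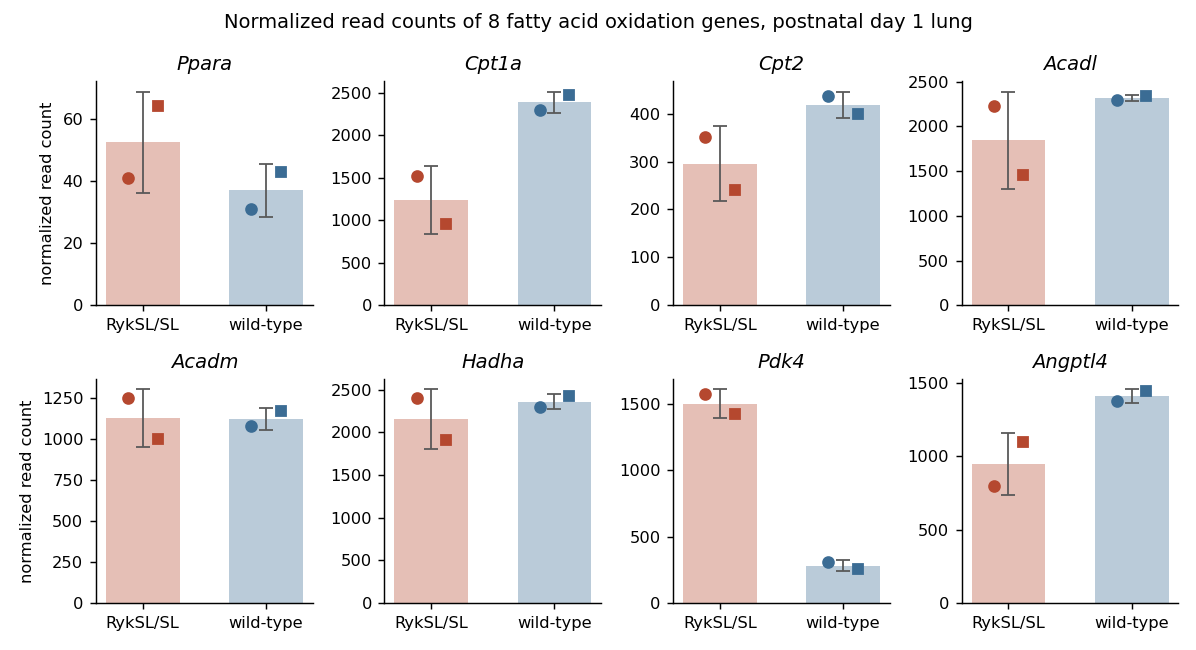
Normalized read counts of each of the 8 genes (vertical axes from 0, scaled per gene) in RykSL/SL and wild-type lungs; circles are replicate 1, squares replicate 2, bars the mean and lines the SD (n = 2 each). Pdk4 stands at 1578 and 1423 in RykSL/SL, above 309 and 252 in wild-type lungs, while Cpt1a, Cpt2, Acadl and Angptl4 are lower in both RykSL/SL lungs.

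**Figure D2:**
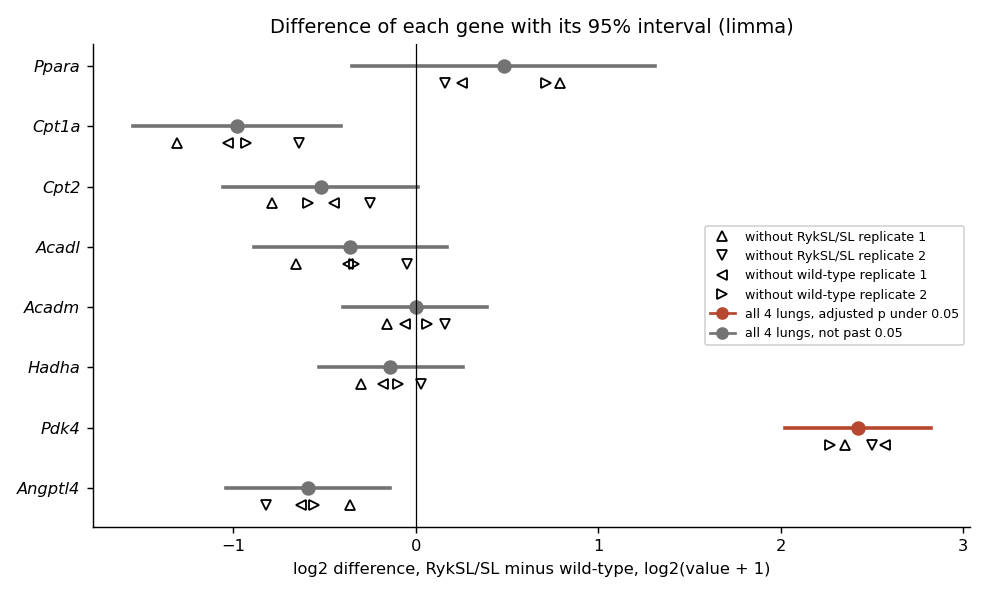
Log2 difference of each gene, RykSL/SL minus wild-type (horizontal axis), from limma over all 4 lungs with its 95% interval (dots and lines, red where the adjusted p was under 0.05), and the difference with each lung left out (open triangles). Pdk4 stays between 2.27 and 2.57, while Acadm and Hadha cross 0.

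The 8 genes differed widely in level. Per kilobase of the principal transcript, the wild-type order was Acadl (1208.2 ± 17 normalized counts per kilobase, SD, n = 2), Hadha (588 ± 22.5), Cpt1a (552.6 ± 29.3), Acadm (547.9 ± 32.1), Angptl4 (425.8 ± 13.9), Cpt2 (176.4 ± 11.6), Pdk4 (80.5 ± 11.6) and Ppara (10.8 ± 2.49). The wild-type lungs overlapped between Hadha and Cpt1a and between Cpt1a and Acadm, so these neighbours were not separated, and every other neighbouring pair was. In the RykSL/SL lungs, Pdk4 averaged 430.7 ± 31.5 per kilobase and ranked 4 of 8, where it ranked 7 in the wild type. Cpt1a averaged 287.6 ± 92.9 in RykSL/SL and Angptl4 285.8 ± 63.5, and their RykSL/SL lungs overlapped, so these ranks were not separated, nor were those of Acadm (549.3 ± 86) and Hadha (537.1 ± 86.4).

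Pdk4 is one of 4 pyruvate dehydrogenase kinase genes. Its share of their transcripts, per kilobase, was 38.1% and 47% in RykSL/SL lungs and 14.7% and 11.4% in wild-type lungs. Pdk4 alone passed among the 14 tested genes for the kinases, their opposing phosphatases, the enzyme complex and the mitochondrial pyruvate carrier. The list median was 0.09 on the log2 scale, against -0.02 over all genes tested, of which 2.39% passed. Pdk1 had 1187 and 801 normalized counts in RykSL/SL and 816 and 910 in wild-type lungs, overlapping. The phosphatase gene Pdp2, which reverses the action of the kinases, had 156 and 243 in RykSL/SL and 112 and 136 in wild-type lungs and did not pass (0.65, adjusted p = 0.249). Pdk1 and Pdp2 were chosen after their values were seen.

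The genes whose pattern over the 4 lungs was closest to that of Pdk4, by Euclidean distance of log2 values centred on the wild-type mean and among 12431 genes with a mean of at least 50, were Glul, Adamts15 and Cpne7. Glul, which encodes glutamine synthetase, was at a distance of 0.259. It had 18764 and 15398 normalized counts in RykSL/SL lungs and 3315 and 3351 in wild-type lungs, but 12.61% of its 50-base sequences also occur in transcripts of other genes. The matrix protease gene Adamts15 was at 0.294, with 4217 and 4607 in RykSL/SL and 804 and 811 in wild-type lungs. Cpne7, for a calcium-dependent phospholipid-binding protein, was at 0.361, with 160 and 149 in RykSL/SL and 25 and 22 in wild-type lungs. Their log2 differences were 2.35, 2.45 and 2.67, close to that of Pdk4 because they were chosen for that likeness, and are given as a description. The likeness rests on 4 lungs of 2 genotypes.

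Around Angptl4, the genes that release fatty acids from stored or circulating fat included a pair that rose. Pnpla2, which encodes the triglyceride lipase ATGL of lipid droplets, had 1596 and 1600 normalized counts in RykSL/SL lungs and 604 and 717 in wild-type lungs, a log2 difference of 1.28 (standard error 0.149, limma, adjusted p = 0.0193). Lpl, the lipase that ANGPTL4 inhibits, had 4462 and 5730 in RykSL/SL and 2496 and 2606 in wild-type lungs, a difference of 0.99 (standard error 0.17, adjusted p = 0.0475). Neither overlapped between the genotypes, nor did 52.6% of all genes tested. Of the 10 tested genes of this list, 2 rose, none fell and 8 did not pass, with a median of 0.13. Over all genes tested, 1.47% rose and 0.917% fell. The LPL anchoring protein gene Gpihbp1 (991 and 1268 in RykSL/SL, 992 and 925 in wild-type lungs) and the hormone-sensitive lipase gene Lipe (406 and 311 in RykSL/SL, 342 and 368 in wild-type lungs) did not pass. Both were chosen after their values were seen. Lpl did not pass with libraries scaled to the same total (adjusted p = 0.0576) or after quantile normalization (0.066). Among the 5 tested angiopoietin-like genes none passed, and Angptl8, of the same family as Angptl4, stood at 54 and 110 in RykSL/SL and 53 and 51 in wild-type lungs (adjusted p = 0.446).

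Of 20 tested genes of a further list of PPAR-alpha targets, 1 fell and none rose. It was Plin2, which coats lipid droplets, with 1163 and 1324 normalized counts in RykSL/SL lungs and 2492 and 2421 in wild-type lungs, a log2 difference of -0.98 (standard error 0.14, limma, adjusted p = 0.0314). The groups did not overlap, nor did those of 52.6% of all genes tested. The list median was -0.02, the same as over all genes tested, and values ran from -1.14 to 1.33. Over all genes tested, 1.47% rose and 0.917% fell. Of the 28 genes listed, 8 were below the filter, among them the liver targets Cyp4a10, Cyp4a14, Fabp1 and Fgf21, which had between 0 and 7 normalized counts in every lung. The fatty acid transporter gene Cd36 had 18483 and 18346 in RykSL/SL and 14436 and 13931 in wild-type lungs and did not pass (adjusted p = 0.274). These 5 genes were chosen after their values were seen.

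Among genes for PPAR factors, their RXR partners and their co-regulators, 1 of 14 tested genes rose and none fell. In the whole test 1.47% of genes rose and 0.917% fell. Nrip1, which encodes the corepressor RIP140 of nuclear receptors, had 1668 and 1484 normalized counts in RykSL/SL lungs and 799 and 805 in wild-type lungs. The groups did not overlap, and the log2 difference was 0.97 (standard error 0.139, limma, adjusted p = 0.0315). The list median was 0.34, with 12 differences above 0 and 2 below. The groups did not overlap in 10 genes, all higher in RykSL/SL, where 25.7% of all genes tested were higher without overlap.

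Within this list the coactivator gene Ppargc1a, which encodes PGC-1alpha and was chosen after its values were seen, separated the RykSL/SL lungs. It had 289 and 1173 normalized counts in RykSL/SL replicates 1 and 2 and 213 and 185 in wild-type lungs. Replicate 2 was far above the other 3 lungs, and the difference of 1.55 had a standard error of 0.601 and did not pass (limma, adjusted p = 0.23). Without RykSL/SL replicate 1 it was 2.56. Pnpla2, Plin2, Nrip1 and Lpl did not pass in limma without the mean-variance trend (adjusted p = 0.0656, 0.0906, 0.0901 and 0.11), without a filter on low values (0.222, 0.222, 0.222 and 0.24), or in the fits without RykSL/SL replicate 2 or without either wild-type lung, which called no gene.

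**Figure D3:**
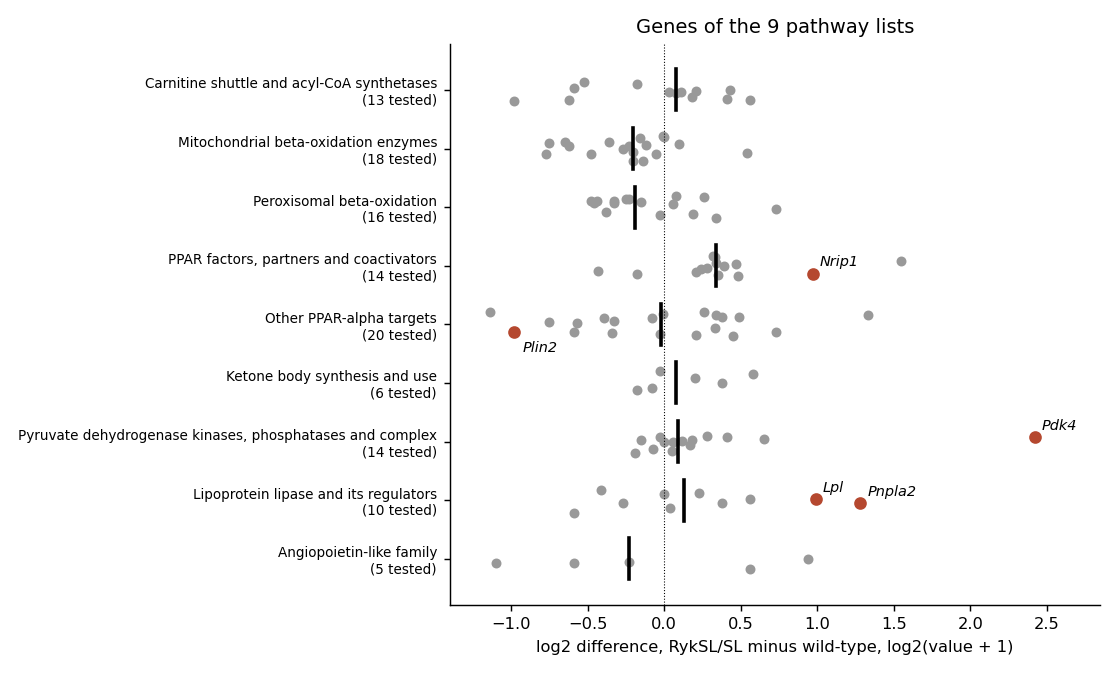
Log2 difference, RykSL/SL minus wild-type (horizontal axis), of the tested genes of the 9 pathway lists (rows); each dot is a gene, red and named where the adjusted p was under 0.05, and the black bar is the list median. Pdk4 at 2.42 stands far to the right of the others, Pnpla2, Lpl and Nrip1 rose, and Plin2 fell.

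The remaining enzymes of fatty acid oxidation gave no call, where 2.39% of all genes tested passed. In the carnitine shuttle list, which includes acyl-CoA synthetases, none of 13 tested genes passed, and the median was 0.08, with 8 differences above 0 and 5 below. The groups did not overlap in 10 of them, 5 higher and 5 lower in RykSL/SL. Over all genes tested, 25.7% were higher and 26.9% lower without overlap. Slc25a20, the carrier that moves acylcarnitines across the inner membrane between CPT1 and CPT2, had 481 and 495 normalized counts in RykSL/SL lungs and 768 and 701 in wild-type lungs (-0.59, limma, adjusted p = 0.104). Like Cpt1a and Cpt2, it was lower in both RykSL/SL lungs without overlap. Slc22a5, which takes up carnitine into cells and was chosen after its values were seen, lay on the other side, with 646 and 560 in RykSL/SL and 413 and 401 in wild-type lungs (0.56, adjusted p = 0.131).

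None of the 18 mitochondrial beta-oxidation genes, 3 of which are members, passed in either direction, where 2.39% of all genes tested passed. The median was -0.2, with 2 differences above 0 and 16 below. The groups did not overlap in 11 of them, 1 higher and 10 lower in RykSL/SL, where 26.9% of all genes tested were lower without overlap. Decr1, a reductase needed for unsaturated fatty acids, had 970 and 823 normalized counts in RykSL/SL lungs and 1435 and 1368 in wild-type lungs (-0.65, adjusted p = 0.0921). The isomerase gene Eci1, also for unsaturated chains, had 382 and 385 in RykSL/SL and 569 and 608 in wild-type lungs (-0.62, adjusted p = 0.0976). Hadh, the short-chain hydroxyacyl-CoA dehydrogenase gene, stood at 1716 and 1052 in RykSL/SL and 2270 and 2323 in wild-type lungs, and Echs1, for the hydratase of the same cycle, lay higher in RykSL/SL, with 2094 and 2719 in RykSL/SL and 1572 and 1716 in wild-type lungs. Hadh and Echs1 were chosen after their values were seen and did not pass (adjusted p = 0.164 and 0.171).

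The RykSL/SL lungs differed from each other along these genes. In 14 of the 18 genes replicate 1 was above replicate 2. So it was in 13 of 16 tested peroxisomal genes and in 65 of the 108 distinct tested genes of the pathway lists. That count was not taken over all genes tested. The median of the 18 genes against the wild-type mean was -0.07 in replicate 1 and -0.34 in replicate 2. Over all genes tested the corresponding medians were 0 and -0.02. Among the 8 members, 6 were higher in replicate 1 than in replicate 2, the exceptions being Ppara and Angptl4. Without RykSL/SL replicate 1, the lung with high Xist, the difference was 2.35 for Pdk4 and 0.79 for Ppara. It was -1.31 for Cpt1a, -0.79 for Cpt2, -0.66 for Acadl, -0.36 for Angptl4, -0.3 for Hadha and -0.16 for Acadm. The fit without RykSL/SL replicate 1 sets 1 RykSL/SL lung against 2 wild-type lungs and assumes that it varies as the wild-type lungs do. In the fit with all lungs, 5 of the 108 distinct tested genes of the pathway lists passed, 4 higher and 1 lower. Of all genes tested, 2.39% passed.

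**Figure D4:**
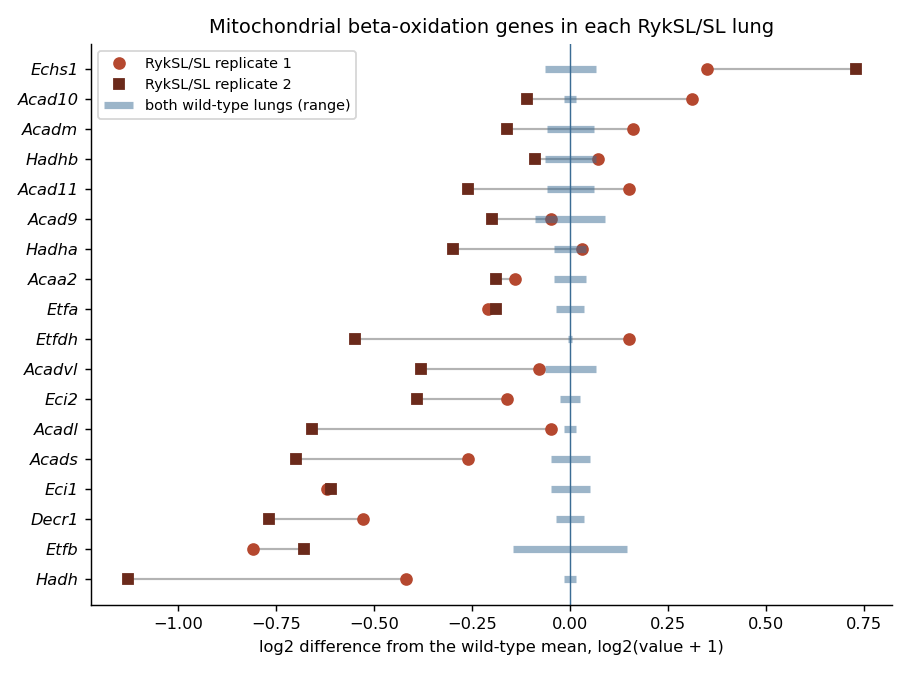
Log2 difference from the wild-type mean (horizontal axis) of the 18 mitochondrial beta-oxidation genes (rows) in RykSL/SL replicate 1 (circles) and replicate 2 (squares), with the range of both wild-type lungs as blue bars. Replicate 2 lies left of replicate 1 in 14 of the 18 genes, and most genes lie left of 0 in replicate 2.

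Peroxisomal oxidation and ketone metabolism gave no call either, where 2.39% of all genes tested passed. Of 16 tested peroxisomal genes none passed, with a median of -0.19, which was -0.07 in RykSL/SL replicate 1 and -0.33 in replicate 2. Pex11a, a peroxisome division factor and PPAR-alpha target, had 478 and 452 normalized counts in RykSL/SL lungs and 291 and 270 in wild-type lungs (0.73, limma, adjusted p = 0.0776). The peroxisomal thiolase gene Acaa1b had 389 and 366 in RykSL/SL and 478 and 549 in wild-type lungs (-0.44, adjusted p = 0.203). None of 6 ketone body genes passed, and Oxct1, which activates ketone bodies for use, had 2364 and 2110 in RykSL/SL and 2010 and 1891 in wild-type lungs (adjusted p = 0.482).

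Markers of tissues that oxidize much fat were read beside these genes. All 9 tested heart muscle markers, of 10 listed, were lower in RykSL/SL lungs without overlap. Over all genes tested, 26.9% were lower without overlap and 0.917% passed downward. The 10 listed had summed normalized counts of 3771 and 3738 in RykSL/SL and 7315 and 7304 in wild-type lungs. Myl7 and Myl4, atrial myosin light chain genes, fell by 1.62 and 1.28 on the log2 scale (limma, adjusted p = 0.0109 and 0.0314). Neither passed without the mean-variance trend (0.0531 and 0.0865), without the filter on low values (0.222 and 0.24), or without RykSL/SL replicate 2 or either wild-type lung. Myh6 and Actc1, which had the highest mean normalized counts in the list when not divided by length, did not pass (adjusted p = 0.0782 and 0.297). Nppa, named after its values were seen, was at 1 to 3 in every lung. The heart markers lay lower in both RykSL/SL lungs, as did Cpt1a, Cpt2, Acadl and Angptl4 and unlike Pdk4, and their part in these differences was not tested.

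Brown and white fat markers were nearly absent. Of 8 listed, 4 were at 3 or below in every lung, with Elovl3, named after its values were seen, at 0 throughout, and the list summed to 161 and 112 in RykSL/SL and 130 and 130 in wild-type lungs, most of it Adrb3 (149 and 96 in RykSL/SL, 116 and 113 in wild-type lungs). Cidea had 5 and 7 in RykSL/SL and 3 and 10 in wild-type lungs. The 8 liver markers summed to 106 and 99 in RykSL/SL and 41 and 30 in wild-type lungs, led by Alb (51 and 26 in RykSL/SL, 16 and 11 in wild-type lungs) and Apoa1 (21 and 29 in RykSL/SL, 6 and 10 in wild-type lungs). Neither passed (limma, adjusted p = 0.17 and 0.136). Skeletal muscle markers summed to 219 and 174 in RykSL/SL and 283 and 295 in wild-type lungs, led by Ckm (74 and 64 in RykSL/SL, 138 and 180 in wild-type lungs, adjusted p = 0.0665) and Acta1 (71 and 35 in RykSL/SL, 44 and 41 in wild-type lungs). The lower sum in RykSL/SL rested on Ckm. Of the 5 tested, Ckm was lower without overlap and the other 4 overlapped, where 26.9% of all genes tested were lower without overlap. The part of these tissues in the differences of the 8 genes was not tested.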

How the data were processed

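RNA from the left lung lobe of 4 mice at postnatal day 1, 2 per genotype, was made into libraries with a stranded mRNA kit from 3 µg of total RNA, per the labels' protocols. Sample titles gave the genotype and the replicate number. Per the submitters' processing notes, DESeq2 1.14.1, featureCounts 1.5.1 of Subread, STAR 2.4.0a and FastQC were used, and the genome is named as GRCm38 or mm10. Not given in the sources used here are the scaling, the handling of strand and that of multiply aligned reads.

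Whole numbers marked as normalized counts are what the authors deposited, and their unit was taken as a score. The values 3, 10 and 17 are skipped in RykSL/SL replicate 2, as when counts are multiplied by a factor and rounded, so a test for counts was not used. Library depth before scaling is unknown.

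limma 3.58.1 (R 4.3.3, with data.table at version 1.17.8) with a mean-variance trend was fitted to log2(value + 1) for 18436 genes that averaged 10 or more, two-sided, with 4.07 prior degrees of freedom and an adjusted p (Benjamini-Hochberg) under 0.05 as the threshold. The fit was tested on simulated data with known changes. Levels per kilobase use the longest principal transcript of GENCODE M21 (GRCm38). Less than 3% of the 50-base sequences of each of the 8 genes occur in transcripts of other genes. Python 3.11.15 with pandas 2.3.3, numpy 2.4.6 and matplotlib 3.10.9 was used otherwise. The 8 genes, the 9 pathway lists and the 5 marker lists were chosen with earlier results of these data known. Besides the 8, each pathway list named its called genes, at most 4, or, with none, the 2 of smallest p with a mean of at least 50. Each marker list named its called genes and the 2 of highest mean, and the 3 genes nearest to Pdk4 were named. Not reported here is 1 gene that the rule picked. Where a further gene is named with its values, apart from Ryk, Xist and Ddx3y, the text says that its values were seen first. The alternatives were other pseudocounts, filters, scalings and variance models, each lung left out in turn, and the replicate number as a block.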

Additional observations from a re-analysis of the deposited data

How the results depend on the processing

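The log2 differences of the 8 genes were little moved by the pseudocount, the filter, the scaling or the trend, while the calls depended on the lungs included. Leaving out 1 lung at a time gave from 0 to 2385 called genes (440 with all lungs), from 0 to 3 of the 8 members (1 with all lungs) and from 0 to 18 genes of the pathway lists (5 with all lungs). The differences then ranged from 2.27 to 2.57 for Pdk4, from -1.31 to -0.64 for Cpt1a, from -0.66 to -0.05 for Acadl, from -0.16 to 0.16 for Acadm, from -0.3 to 0.03 for Hadha, from 0.16 to 0.79 for Ppara, from -0.79 to -0.25 for Cpt2 and from -0.82 to -0.36 for Angptl4, and among the markers from -0.25 to 0.38 for Adrb3 and from -0.27 to 0.73 for Acta1. With no filter on low values limma called 0 genes (4876 at an unadjusted p under 0.05), 0 members and 0 list genes, and Pdk4 kept a difference of 2.42 (adjusted p = 0.222). Without the trend 72 genes were called, and Pdk4 was then the 1 gene called among the members and the pathway lists. Scaling to equal totals put Adrb3 at -0.02 and the median of all genes at -0.094. With the replicate number as a block, 766 genes and 2 members were called, the second being Cpt1a (-0.98, adjusted p = 0.0461). What same-numbered lungs have in common besides the number is not given in the labels. The correlation of their deviations (-0.058) cannot show it. Of 357 comparisons for 30 other genes, 314 kept direction and side of the threshold, 32 lost the call, 8 gained it and 3 changed sign. The cause was not tested. Library depth before scaling is unknown, so its limit was not measured.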

Other observations

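The deposited annotation marks 49 genes with the KEGG term for fatty acid degradation. Of the 37 tested, none rose and 2 fell, where 1.47% of all genes tested rose and 0.917% fell. The term had a median log2 difference of -0.14. This term and the next were chosen after the values were seen. The 2 that fell were dehydrogenases of alcohol and aldehyde metabolism and not enzymes of the beta-oxidation cycle. Adh1, an alcohol dehydrogenase that also oxidizes retinol, had 2302 and 1938 normalized counts in RykSL/SL lungs and 6903 and 6958 in wild-type lungs, a log2 difference of -1.71 (limma, adjusted p = 0.0109). Aldh9a1, an aldehyde dehydrogenase that takes part in carnitine synthesis, had 433 and 375 in RykSL/SL and 857 and 901 in wild-type lungs (-1.12, adjusted p = 0.0277). Neither overlapped between the genotypes, nor did 52.6% of all genes tested.

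Of 54 tested genes with the KEGG term for PPAR signalling, 2 rose and 3 fell, with a median of -0.01. The shares over all genes tested were 1.47% and 0.917%. Besides Lpl, the gene that rose was Fabp4, a fatty acid binding protein of capillary endothelium and adipocytes, with 905 and 1610 in RykSL/SL and 373 and 358 in wild-type lungs (1.72, limma, adjusted p = 0.0393). Besides Plin2, Olr1, which encodes a receptor for oxidized lipoproteins, fell, with 50 and 46 in RykSL/SL and 150 and 140 in wild-type lungs (-1.58, adjusted p = 0.029), as did the fatty acid transporter gene Slc27a6, with 351 and 172 in RykSL/SL and 2983 and 2697 in wild-type lungs (-3.52, adjusted p = 0.0109).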
